A study of Rattus norvegicus with 15 samples.

Results

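The genes described here are the subunits of the proteasome, with a few regulators that share their naming, in the epididymal fat of rats, a visceral depot attached to the epididymis. Members were all genes whose symbol begins with Psma, Psmb, Psmc, Psmd or Psme followed by a number and that at least 1 probe set names as its single gene. The rule found 41 of 14217 genes on the array, through 55 probe sets, and each gene is represented by its brightest probe set. They comprised 13 subunits of the 20S core, 17 subunits of the 19S cap, 5 immunoproteasome genes, 3 assembly chaperones of the cap, the activator Psme4, and 2 genes that the naming rule takes in although they encode no subunit. All 41 lay above the filter on low signals that left 10514 genes for testing, which was set on the mean over all 15 arrays. Psmb6 and Psme3 were named only by probe sets that also name other genes, and they were not used here.

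RNA was taken from 15 male Long-Evans rats of a private colony, with 1 Affymetrix RAE230_2 array per rat. The obese group held 7 rats fed the high fat and high sucrose diet TD95217 since weaning, and the lean group held 8 rats fed Purina chow 5008 since weaning. All were shipped at 14 weeks of age and housed singly. They went through an oral glucose test and a fasted tail bleed, and were killed at 26 weeks of age. Diet and body fat differed together, so their parts cannot be told apart. Values are MAS5 signals, a brightness per probe set, and signals of different probe sets are not compared with each other as levels. Adipocyte markers marked the tissue: 9 of the 9 measured, Adipoq, Plin1 and Fabp4 among them, lay above the filter, against 0 of 5 markers of testis and epididymis. Obese rat 1 and lean rat 7 gave arrays far more alike than any other pair. Their median absolute difference over 18625 probe sets was 0.090 on the log2 scale, against 0.19 to 0.36 for the other 104 pairs, and over the 41 proteasome genes it was 0.041 against 0.078 to 0.39. The labels put these arrays in different groups, so the fold changes of members and the medians of lists are given with all 15 arrays and with the 13 arrays that remain without them (6 obese and 7 lean rats). Other values are for all 15 arrays unless 13 are named.

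The proteasome is the cell's main machine for breaking down proteins tagged with ubiquitin. Its barrel, the 20S core, is a stack of rings of alpha subunits, which gate the entry, and beta subunits, of which Psmb5, Psmb6 and Psmb7 cut the chain. The 19S cap sits on the barrel, where its ATPases (the Psmc genes) unfold the substrate. Among its other subunits (most Psmd genes) are Psmd4, which binds ubiquitin, and Psmd14, which removes it. Interferon induces Psmb8, Psmb9 and Psmb10, which take the places of Psmb5, Psmb6 and Psmb7 to form the immunoproteasome, known for making peptides for MHC class I, and the activator ring of Psme1 and Psme2 (PA28). In fat cells the transcription factor Nfe2l1 raises proteasome genes when more protein has to be cleared.

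No proteasome gene passed the threshold, and the estimates leaned towards small increases in obese rats. With limma, 0 of 41 had an adjusted p under 0.05 with 15 arrays, where 0% of all genes did, and 0 of 41 had one with 13 arrays, where 1.1% of all genes did. At an unadjusted p under 0.05, 11 of 41 were higher in obese rats and 0 lower, in both sets of arrays and for the same 11 genes. That is 26.8% of members, and the background of genes higher at that p was 7.75% with 15 arrays and 8.54% with 13. The log2 fold change was above 0 for 33 of 41 genes in both sets (80.5%). Of all genes, 46.9% were above 0 with 15 arrays and 46.7% with 13. With the mean over the probe sets of a gene, 29 of 41 were above 0 in both sets, beside 48.6% of all genes. By that mean 9 had an unadjusted p under 0.05, and the share of all genes at that p was not computed. The median log2 fold change of the 41 genes was 0.15 with 15 arrays and 0.17 with 13 arrays, and that of all genes tested was -0.014 and -0.017. The groups overlapped for all 41 genes in both sets, where 0.181% and 1.59% of all genes showed no overlap. The limma adjusted p of the members ran from 0.156 to 0.986 with 15 arrays and from 0.104 to 0.981 with 13, and standard errors ran from 0.082 to 0.16 with 15 arrays.

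**Figure D1:**
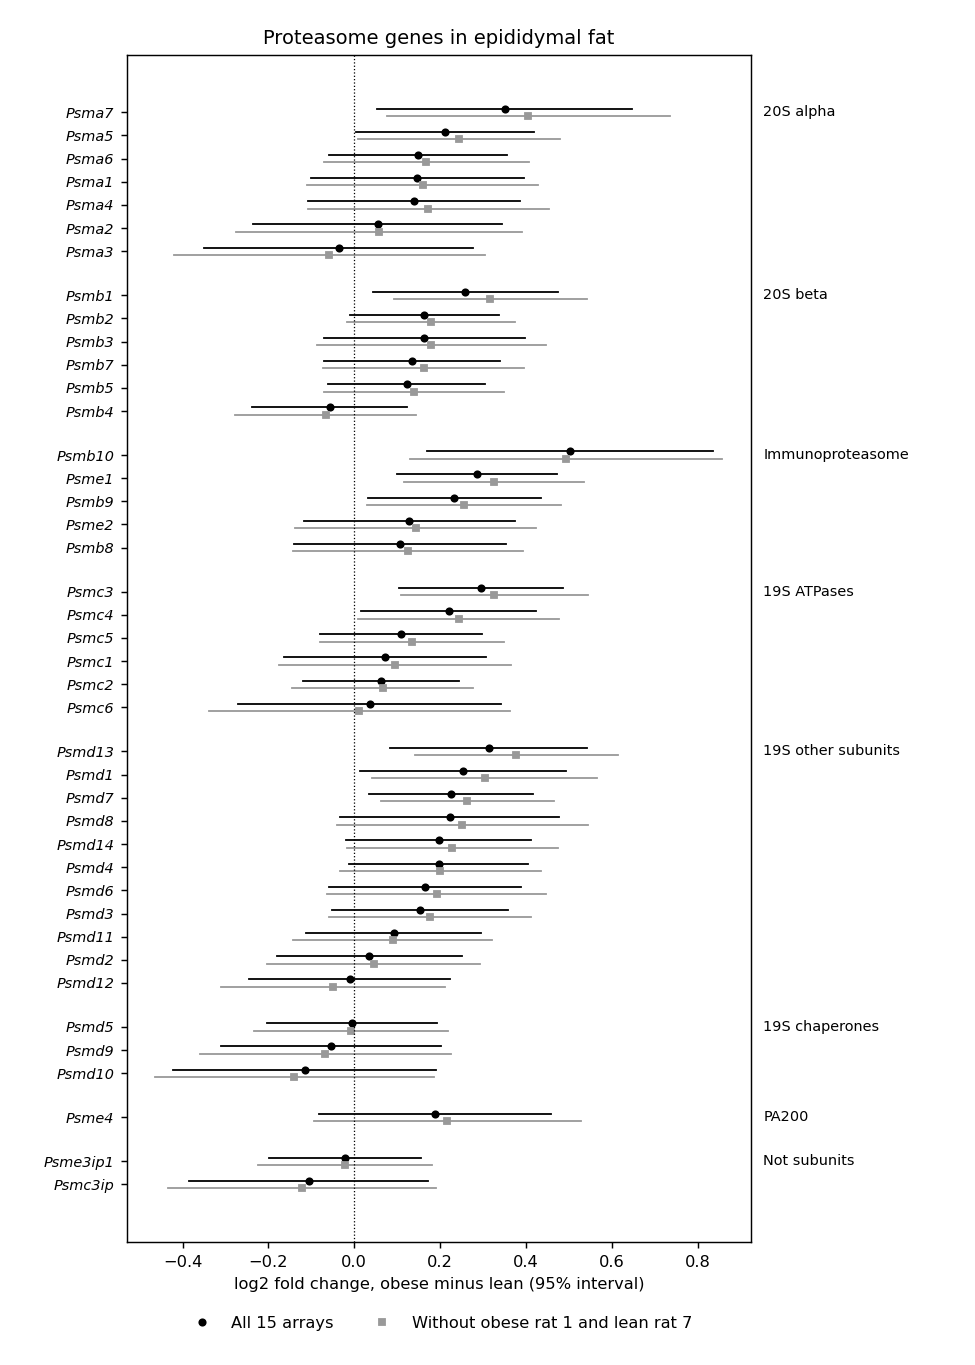
The log2 fold change (horizontal axis, obese minus lean) of each of the 41 genes, grouped by role on the vertical axis, with its 95% interval from limma. Black circles stand for all 15 arrays and grey squares for the 13 arrays without obese rat 1 and lean rat 7. Most points lie to the right of 0, Psmb10 has the largest value at 0.50, and the 3 cap chaperones lie to the left of 0.

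The lean in the estimates depended in size on how the arrays were scaled. Array medians were 748 ± 48.7 (SD, n = 7) in obese rats against 808 ± 38.8 (SD, n = 8) in lean rats, with ranges that overlapped, while trimmed means lay between 1500.34 and 1500.42. When arrays were centred on their medians, the median of all genes moved by over 0.1, from -0.014 to 0.088 with 15 arrays, and 39 of 41 members were then above 0 beside 68.9% of all genes. Quantile normalization left 31 of 41 above 0 beside 49.4% of all genes. Relative to the median of all genes, the median of the members was 0.16 as deposited, 0.16 with median centring and 0.087 with quantile normalization. With 13 arrays these differences were 0.18, 0.18 and 0.099. The number of members with an unadjusted p under 0.05 was 20 with median centring and 7 with quantile normalization, in place of 11. The share of all genes at that p was not computed under these scalings, so these counts have no background beside them. Restricting the table to the brighter genes, above the 60th percentile of mean signal, kept all 41 members and gave 50.8% of 8030 genes above 0. No member passed under any of these settings.

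**Figure D2:**
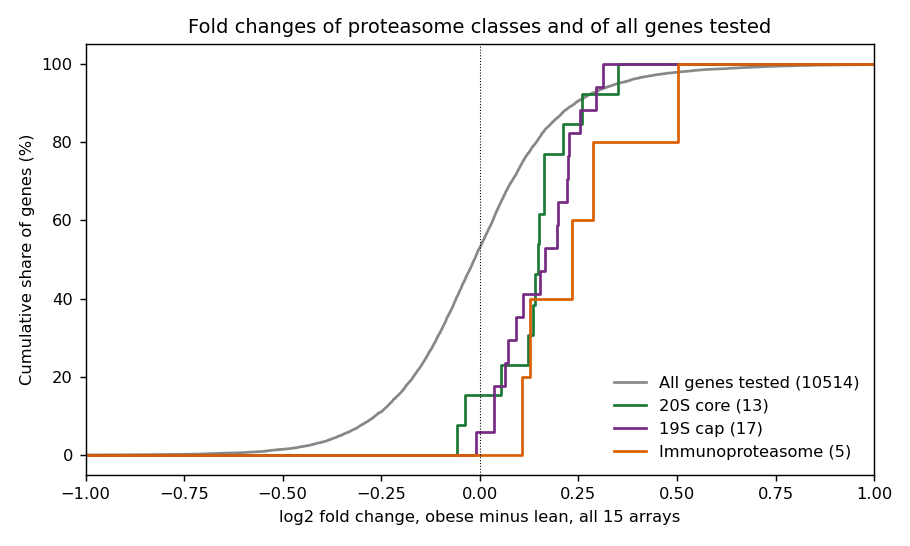
Cumulative share of genes (vertical axis, %) at or below each log2 fold change (horizontal axis, obese minus lean, all 15 arrays). The grey line holds all 10514 genes tested, and the stepped lines hold the 13 genes of the 20S core, the 17 of the 19S cap and the 5 of the immunoproteasome, whose medians of 0.15, 0.16 and 0.23 lie to the right of that of all genes.

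Among the immunoproteasome genes all 5 estimates were above 0, with a median of 0.23 with 15 arrays (0.13 with the mean over the probe sets of a gene) and 0.26 with 13, and Psmb10 had the largest of any proteasome gene. Psmb10 (Entrez gene 291983), the inducible subunit that replaces Psmb7, had signals with a lowest, median and highest value of 1793, 2269 and 3363 in obese rats and of 1093, 1706 and 2442 in lean rats. All 7 obese rats lay above the lean median, and 3 lay above every lean rat. Its log2 fold change was 0.50 ± 0.16 (SE; limma adjusted p = 0.161) with 15 arrays and 0.49 ± 0.17 (SE; limma adjusted p = 0.154) with 13. Psme1 (29630), a subunit of the PA28 ring, had signals of 13571, 15660 and 17996 in obese rats and of 10245, 13102 and 13842 in lean rats. Of the obese rats 6 lay above every lean rat, and obese rat 3 lay within the lean range. The log2 fold change of Psme1 was 0.29 ± 0.089 (SE; limma adjusted p = 0.156) with 15 arrays and 0.32 ± 0.099 (SE; limma adjusted p = 0.112) with 13. A dimmer probe set naming Psme1 alone had -0.45 ± 0.20 with 15 arrays (SE; unadjusted p = 0.0379 in a separate limma fit without the filter, where the brighter one had an SE of 0.092), and the mean of both probe sets had -0.083, so the direction of Psme1 rests on the probe set chosen.

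Psmb9 (24967), which replaces Psmb6, had signals of 2570, 2954 and 3252 in obese rats and of 1955, 2482 and 3071 in lean rats. All lean rats but lean rat 8 lay below every obese rat. The log2 fold change of Psmb9 was 0.23 ± 0.096 (SE; limma adjusted p = 0.256) with 15 arrays and 0.26 ± 0.11 (SE; limma adjusted p = 0.225) with 13. Psmb8 (24968), which replaces Psmb5, had signals of 5158, 6354 and 6819 in obese rats and of 3928, 5725 and 6942 in lean rats, and no obese rat exceeded the highest lean rat. For Psmb8 the estimate was 0.11 ± 0.12 (SE; limma adjusted p = 0.699). Psme2 (29614), the other PA28 subunit, had signals of 8174, 9381 and 11012 in obese rats and of 6617, 8198 and 11599 in lean rats, which overlapped over the whole obese range. The estimate for Psme2 was 0.13 ± 0.12 (SE; limma adjusted p = 0.63). With 13 arrays Psmb8 had 0.13 ± 0.13 and Psme2 0.14 ± 0.13 (SE), and both missed the threshold. The 95% intervals with 15 arrays reached from -0.14 to 0.35 for Psmb8 and from 0.17 to 0.84 for Psmb10.

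**Figure D3:**
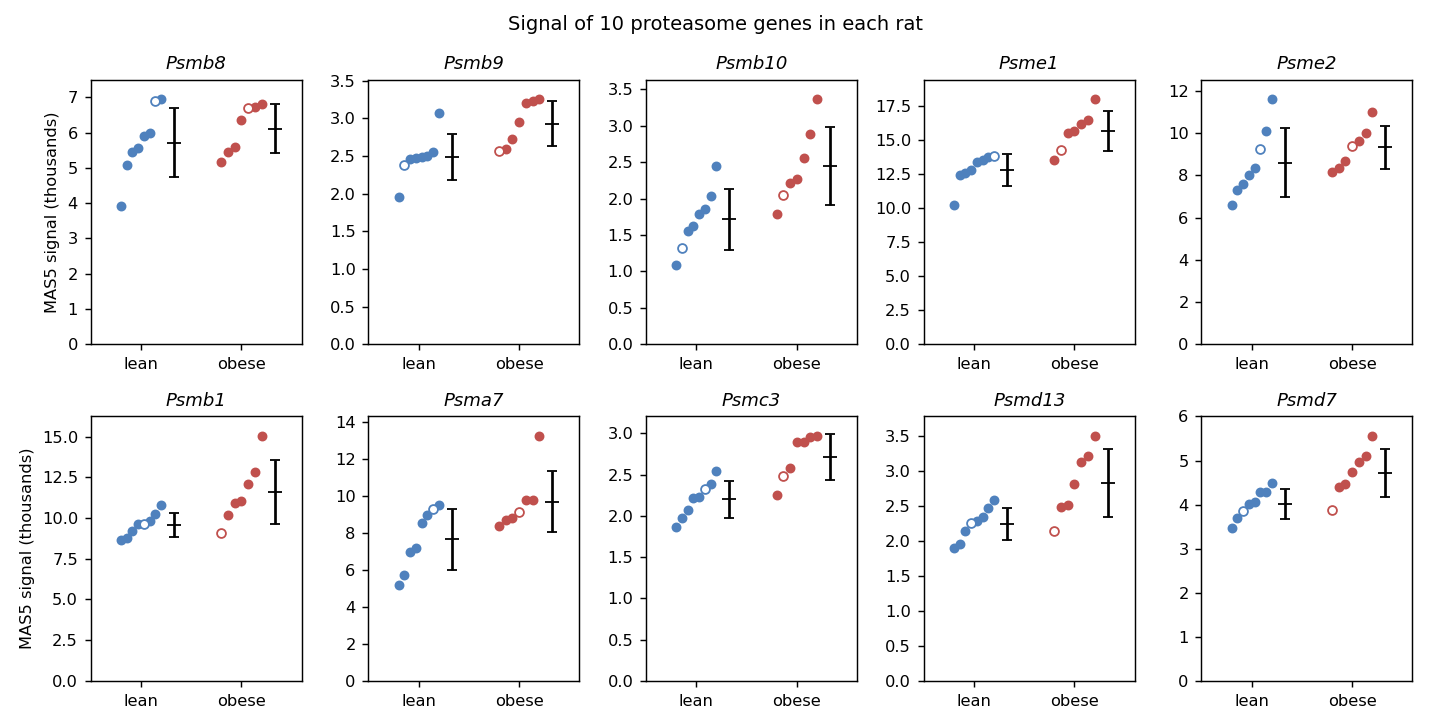
MAS5 signal (vertical axes, scaled as printed on them, each from 0) of 10 proteasome genes in each rat, lean in blue and obese in red, ordered by value within a group, with the mean and SD beside the points (n = 8 lean and 7 obese). Open circles are obese rat 1 and lean rat 7. Psme1 has 6 obese rats above every lean rat, while Psmb8 and Psme2 overlap throughout.

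The promoters of Psmb10, Psme2, Psmb5 and Psmd13 are shown because they set the interferon motif of an inducible core subunit and a PA28 subunit beside the motifs found in a constitutive core subunit and a cap subunit. Each is the 250 bases before a start of the gene in RefSeq (build GRCr8), 5′ to 3′ on the gene's strand, with motif matches in capitals. For Psme2 the start used, base 33052751, lies inside the gene's annotated span of 33048452 to 33053055, and so does its window.
Psmb10: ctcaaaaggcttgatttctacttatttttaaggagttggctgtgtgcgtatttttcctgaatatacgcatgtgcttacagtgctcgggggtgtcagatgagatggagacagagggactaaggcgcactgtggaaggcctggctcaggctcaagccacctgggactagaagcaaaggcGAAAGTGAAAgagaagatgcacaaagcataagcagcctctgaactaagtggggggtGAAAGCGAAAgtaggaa
Psme2: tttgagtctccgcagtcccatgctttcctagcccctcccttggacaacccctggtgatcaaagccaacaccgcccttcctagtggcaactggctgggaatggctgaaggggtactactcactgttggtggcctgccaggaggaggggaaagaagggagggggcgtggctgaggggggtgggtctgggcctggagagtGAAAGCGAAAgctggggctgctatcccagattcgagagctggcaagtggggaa
Psmb5: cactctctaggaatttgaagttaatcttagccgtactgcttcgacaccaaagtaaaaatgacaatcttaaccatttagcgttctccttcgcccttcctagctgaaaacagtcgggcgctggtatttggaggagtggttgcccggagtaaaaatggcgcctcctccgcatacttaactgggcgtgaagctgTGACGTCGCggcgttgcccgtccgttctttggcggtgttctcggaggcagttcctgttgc
Psmd13: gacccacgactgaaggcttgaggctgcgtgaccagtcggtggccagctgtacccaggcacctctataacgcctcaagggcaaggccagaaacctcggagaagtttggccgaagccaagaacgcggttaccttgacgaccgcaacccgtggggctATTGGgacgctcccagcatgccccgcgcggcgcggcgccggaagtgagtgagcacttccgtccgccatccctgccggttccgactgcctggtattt
The windows lie at chr19:50743293-50743542 (minus strand), chr15:33052752-33053001 (minus strand), chr15:32047380-32047629 (minus strand) and chr1:205393998-205394247 (plus strand). The core of the interferon-stimulated response element was searched on both strands as GAAA, any 2 bases and GAAA again. It matched 2 times in Psmb10, beginning 73 and 17 bases before the start. In Psme2 it matched 1 time, 53 bases before the start used, which is inside the annotated span. It was in 2 of 5 immunoproteasome windows, 2 of 12 of the 20S core (Psma4 and Psmb3) and 1 of 14 of the 19S cap (Psmd7). In all it was in 5 of the 37 windows matched to members and in 3.29% of 27457 promoter windows. The core of the antioxidant response element, the site type that Nfe2l1 binds, searched as TGACNNNGC, was in 6 of 37 member windows (Psma3, Psmb2, Psmb5, Psmd1, Psmd9 and Psme4) and in 10.2% of all. The box CCAAT, a common promoter element, was in 9 of 12 windows of the 20S core, 5 of 14 of the 19S cap and 1 of 5 of the immunoproteasome, beside 34.3% of all windows. The gamma-activated site core, TTCNNNGAA, which reads the same on both strands, was in Psmb8, Psmc6, Psmd3 and Psmd7 and in 7.52% of all windows. The CCAAT and TGACNNNGC matches of Psmb2 share a base, no matches overlap in the 4 windows printed, and a match describes letters only.

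The exchange of constitutive for inducible subunits was set out as the log2 ratio of the 2 signals within each array, where the difference between groups carries meaning and the ratio itself does not. The pair Psmb9 and Psmb6 could not be taken, because no probe set named Psmb6 alone. The log2 ratio of Psmb10 over Psmb7 was -2.01 ± 0.17 (SD) in the 7 obese rats and -2.38 ± 0.38 (SD) in the 8 lean rats, a difference of 0.37 (exact two-sided permutation p = 0.0385, adjusted over 2 pairs p = 0.0771). With 13 arrays the difference was 0.33 (exact two-sided permutation p = 0.0717, adjusted p = 0.143). The adjusted p with 15 arrays fell below the threshold with quantile normalization (difference 0.46, exact permutation adjusted p = 0.0379) and without lean rat 4 or lean rat 6 (exact permutation adjusted p = 0.0152 and 0.028), within a range of 0.0152 to 0.146 over its alternatives. With 13 arrays it did so without lean rat 4 (exact permutation adjusted p = 0.0346). The log2 ratio of Psmb8 over Psmb5 was -0.87 ± 0.16 (SD) in obese and -0.86 ± 0.21 (SD) in lean rats (exact two-sided permutation p = 0.879). Its difference of -0.015 took the other sign with quantile normalization, at 0.013, with the mean over probe sets, at 0.23, and without obese rat 3, obese rat 8 or lean rat 7, at up to 0.026. With 13 arrays it was -0.014 and took the other sign under both settings and without obese rat 3, obese rat 8 or lean rat 1, 4 or 6, at up to 0.016 in the last cases.

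In the 20S core 11 of 13 genes had estimates above 0, and none passed. Their median was 0.15 with 15 arrays, 0.25 with median centring and 0.074 with quantile normalization, and 0.17 with 13 arrays. Psma7 (29674), an alpha ring subunit, had the largest estimate, with signals of 8380, 9121 and 13251 (lowest, median and highest) in obese rats and of 5209, 7846 and 9525 in lean rats. All 7 obese rats lay above the lean median, and obese rat 6 stood far above the rest. Its log2 fold change was 0.35 ± 0.14 (SE; limma adjusted p = 0.248), or 0.41 ± 0.15 with 13 arrays (SE; limma adjusted p = 0.192). Psmb1 (94198), a beta ring subunit without a cutting site, had signals of 9062, 11032 and 15035 in obese rats and of 8624, 9635 and 10817 in lean rats, with 5 obese rats above every lean rat. For Psmb1 the log2 fold change was 0.26 ± 0.10 (SE; limma adjusted p = 0.241), or 0.32 ± 0.11 with 13 arrays (SE; limma adjusted p = 0.141). Psma5 (29672), of the alpha ring, had 0.21 ± 0.098, and Psmb2 (29675), of the beta ring, had 0.16 ± 0.082 (SE; limma adjusted p = 0.316 and 0.349), and with 13 arrays 0.24 and 0.18 (limma adjusted p = 0.263 and 0.322).

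The constitutive cutting subunits that could be measured alone were Psmb5 and Psmb7. Psmb5 (29425) had an estimate of 0.12 ± 0.087 and Psmb7 (85492) of 0.14 ± 0.097 on the log2 scale (SE; limma adjusted p = 0.513 and 0.519), with 95% intervals of -0.060 to 0.30 and of -0.070 to 0.34. With 13 arrays Psmb5 had 0.14 and Psmb7 0.16. Obese rat 3 had the highest Psmb5 signal, 13994, and the other obese rats ran from 9955 to 12129, over a lean range of 9739 to 11909. The mean over its 3 probe sets, 2 of them below the filter, gave Psmb5 -0.12. The estimates below 0 were those of Psmb4 (58854), of the beta ring, at -0.057 ± 0.086, and of the alpha subunit Psma3 (29670), at -0.037 ± 0.15 (SE; limma adjusted p = 0.791 and 0.928), with -0.067 and -0.058 in the 13 arrays. Both moved above 0 with median centring, to 0.045 and 0.065, and Psma3 did so without obese rat 3 (0.012) or lean rat 1 (0.028). The remaining 5 core genes, Psma1, Psma2, Psma4, Psma6 and Psmb3, ran from 0.055 for Psma2 to 0.16 for Psmb3, and from 0.058 to 0.18 for the same genes with 13 arrays.

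In the 19S cap 16 of 17 genes had estimates above 0, and none passed. Their median was 0.16 with 15 arrays and 0.19 with 13, and median centring moved it to 0.27 and 0.31. Over all alternatives it ran down to 0.13 and 0.15. With quantile normalization 15 of 17 were above 0 with 15 arrays and 13 of 17 with 13. The count was 14 in both sets with the Gapdh control ratio, a measure of RNA quality, as a covariate. It was also 14 in both with the mean over the probe sets of a gene. Psmc3 (29677), an ATPase of the ring that feeds the core, had signals of 2257, 2892 and 2967 in obese rats and of 1866, 2223 and 2540 in lean rats. All 7 obese rats lay above the lean median and 5 lay above every lean rat. Its log2 fold change was 0.29 ± 0.091 (SE; limma adjusted p = 0.156), or 0.33 ± 0.10 with 13 arrays (SE; limma adjusted p = 0.121). Psmd13 (365388), a subunit of the lid, had signals of 2138, 2814 and 3500 in obese rats and of 1905, 2273 and 2580 in lean rats. The lowest obese value was that of obese rat 1, and without the pair 6 of 7 lean rats lay below every obese rat. Its log2 fold change was 0.31 ± 0.11 with 15 arrays and 0.38 ± 0.11 with 13 (SE; limma adjusted p = 0.192 and 0.104), the smallest adjusted p of any member with 13 arrays.

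Psmd7 (307821), the lid partner of the deubiquitinase Psmd14, had signals of 3872, 4729 and 5556 in obese rats and of 3461, 4029 and 4479 in lean rats. Its log2 fold change was 0.23 ± 0.090, or 0.26 ± 0.095 with 13 arrays (SE; limma adjusted p = 0.246 and 0.167), and its second probe set had 0.20. Psmc4 (117262), another ATPase, had 0.22 ± 0.097 (SE; limma adjusted p = 0.288), or 0.24 with 13 arrays, with 5 obese rats above every lean rat. Psmd1 (83806), a scaffold of the base, had 0.25 ± 0.11 (SE; limma adjusted p = 0.30), or 0.30 with 13 arrays (limma adjusted p = 0.214). The ubiquitin receptor Psmd4 and the deubiquitinase Psmd14 had 0.20 each, and 0.20 and 0.23 with 13 arrays. Other probe sets of Psmd14 had 0.17 and 0.036 with 15 arrays. The scaffold Psmd2 had 0.035 ± 0.10 (SE), or 0.045 with 13. Across the 6 ATPases the estimates ran from 0.036 for Psmc6 to 0.29 for Psmc3, with a median of 0.090, and across the 11 other subunits of the base and lid from -0.010 for Psmd12 to 0.31 for Psmd13, with a median of 0.20. Psmd12 (287772), of the lid, had -0.050 with 13 arrays. With 15 it changed sign with median centring (0.091), quantile normalization (0.013) and array weights (0.027), and without obese rat 3 or 7 or lean rat 1, 2 or 8 it lay between 0.0046 and 0.049. The 2 dimmer probe sets of Psmc6 had -0.20 and -0.32.

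The 3 assembly chaperones that guide the cap together and then leave it had estimates below 0, at -0.0047 ± 0.094 for Psmd5, -0.054 ± 0.12 for Psmd9 and -0.12 ± 0.15 for Psmd10 (SE). With 13 arrays these were -0.0076, -0.067 and -0.14, and the limma adjusted p with 15 ran from 0.744 to 0.986. Whether they differed from the cap subunits was not tested. Psme4 (498433), the activator PA200, had signals of 4282, 4855 and 6921 in obese rats and of 3546, 4855 and 5423 in lean rats. The log2 difference was 0.19 ± 0.13 (SE; limma adjusted p = 0.497), or 0.22 with 13 arrays, and the other probe sets of Psme4 had 0.21 and -0.041. Psmc3ip, a recombination factor named for binding Psmc3, and Psme3ip1, named for binding Psme3, are no subunits and had -0.11 ± 0.13 and -0.022 ± 0.084 (SE), and -0.12 and -0.021 with 13 arrays.

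The rats did not contribute evenly to these estimates. Each rat's mean over the 13 core genes, as the log2 deviation from all 15 arrays, peaked in obese rat 6, at 0.31, and lean rat 8, at 0.18, exceeded 5 of the obese rats. Over the 17 cap genes the mean was highest in obese rat 7, at 0.23, and lowest in lean rat 1, at -0.21, and obese rat 2, at -0.073, lay among the lean rats. Over the 5 immunoproteasome genes it was highest in obese rat 6, at 0.33, and obese rats ran down to 0.045, against -0.53 to 0.068 in lean rats. The lowest value, -0.53, was that of lean rat 5, and the next lean rat was at -0.13. Obese rat 6 had the highest signal of all 15 rats for 12 of 41 genes, while obese rat 3 had the highest for 8 and the lowest for 8. Without obese rat 6 the median of the 41 genes was 0.12 and 6 genes had an unadjusted p under 0.05, and without lean rat 1 these were 0.12 and 7 (with 13 arrays, 7 genes without obese rat 6). Shares of all genes at that p were not computed with rats left out. The immunoproteasome median without lean rat 5 was 0.19.

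**Figure D4:**
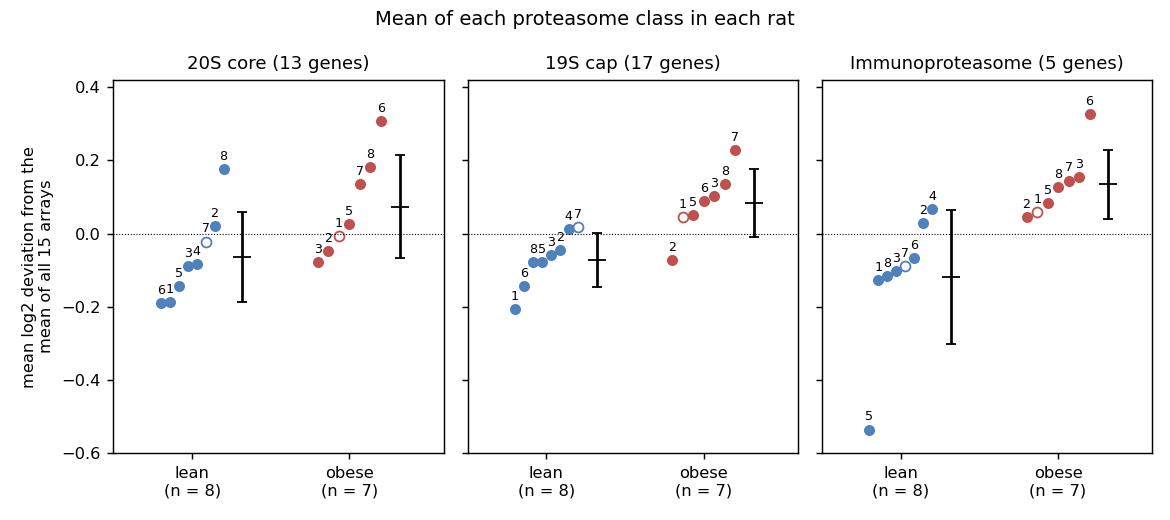
Mean log2 deviation from the mean of all 15 arrays (vertical axes) over the genes of each class in each rat, numbered by rat, lean in blue and obese in red. Bars give the mean and SD of 8 lean and 7 obese rats, and open circles are lean rat 7 and obese rat 1. Lean rat 5 stands at -0.53 in the immunoproteasome panel, and lean rat 8 is high in the core panel alone.

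Genes that build and steer the proteasome are given beside the shares over all genes, of which 46.9% were above 0 with 15 arrays, 14.7% had an unadjusted p under 0.05 with 15 arrays and 16.7% with 13. Of 13 assembly chaperones and regulators tested, 8 were above 0 and 0 passed in either set (limma; 2 had an unadjusted p under 0.05 with 15 arrays and 0 with 13), with a median of 0.079 (0.094 with 13 arrays). Psmg3, a chaperone of core assembly, had 0.26, and Psmf1, an inhibitor of the core, had 0.23 (limma adjusted p = 0.32 each). The regulator Nfe2l1 itself had -0.063 and Nfe2l2, its relative in the antioxidant response, 0.038. Of 15 ubiquitin receptors, shuttles and deubiquitinases tested, 12 were above 0 and 0 passed in either set (limma; 3 had an unadjusted p under 0.05 in each), with a median of 0.12 (0.13 with 13 arrays). Zfand2a, a proteasome-binding protein induced by stress, had 0.80, and the shuttle Ubqln1 had 0.26 (limma adjusted p = 0.221 and 0.263).

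Genes of MHC class I processing and of the interferon response share function or regulation with the immunoproteasome. Of 10 genes of MHC class I processing tested, 4 were above 0, near the share over all genes, with a median of -0.093 (-0.12 with 13 arrays), and 0 passed in either set (limma; 1 had an unadjusted p under 0.05 in each). The chaperone Calr had 0.30 and the class I regulator Nlrc5 -0.33 (limma adjusted p = 0.164 and 0.349). The peptide transporter Tap1, the neighbour of Psmb9 in assembly GRCr8, had -0.052, beside 0.23 for Psmb9. Of 14 interferon response genes 1 was above 0, with a median of -0.22 (-0.25 with 13 arrays), and 0 passed in either set (limma; 3 had an unadjusted p under 0.05 in each). Ifit2 had -0.41 and Cxcl10 -0.42 (limma adjusted p = 0.253 and 0.262). Each rat's mean over the interferon list was highest in lean rat 1, at 0.55, and lean rat 8, at 0.46, and it was -0.42 in obese rat 6, the rat with the highest immunoproteasome mean. Lean rat 5 was low in both, at -0.31 and -0.53.

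**Figure D5:**
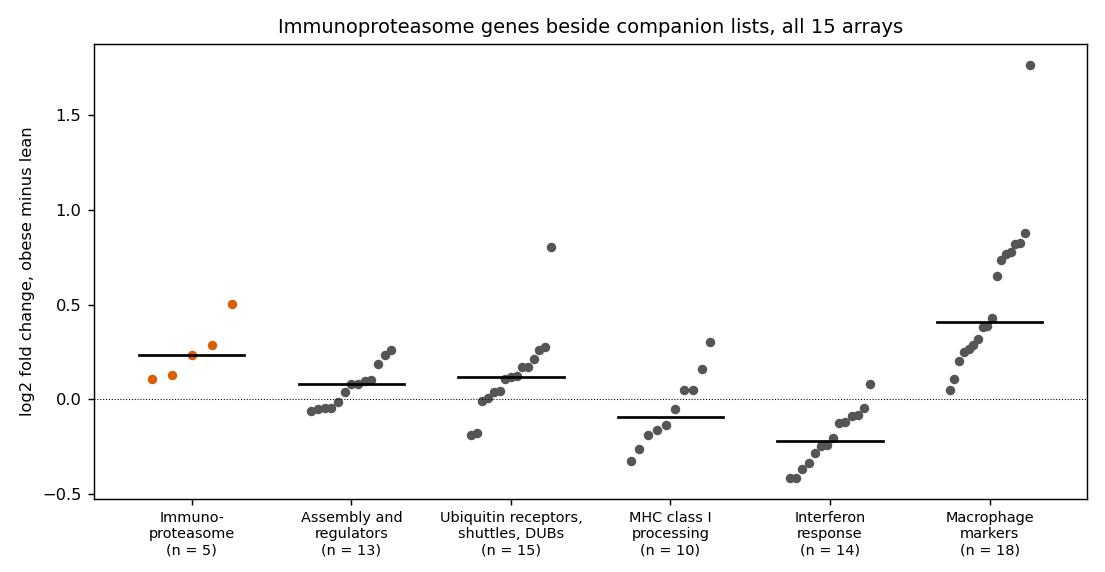
The log2 fold change (vertical axis, obese minus lean, all 15 arrays) of each gene tested in the immunoproteasome, in orange, and in 5 companion lists, in grey, with the median of each list as a bar. The 5 immunoproteasome genes lie above 0, as do all 18 macrophage markers, while 13 of 14 interferon response genes lie below 0.

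All 18 of 18 macrophage markers tested had estimates above 0, with a median of 0.41 with 15 arrays and 0.47 with 13. None passed with 15 arrays, and 12 had an unadjusted p under 0.05 (limma), beside 14.7% of all genes. Without obese rat 1, 7 passed, and 6 rose past the threshold with 13 arrays. Of all 10514 genes, 0 passed with 15 arrays, 151 without obese rat 1 and 116 (1.1%) with 13. Of the 13 arrays, leaving out obese rat 6, 7 or 8 or lean rat 2, 4, 5 or 6 left 2 or 3 macrophage markers past the threshold. In the same fits all genes past the threshold fell too, from 116 to between 33 and 62. With 13 arrays 1 macrophage marker passed without the filter on low signals, 1 with the Gapdh control ratio, a measure of RNA quality, as a covariate and 0 with the rat number as a replicate block. Of all genes 29, 12 and 3 passed under these settings. The block also takes rats without a same-numbered partner out of the difference. The 6 that rose with 13 arrays were Gpnmb by 2.07, Cd68 by 1.03, Laptm5 by 0.97, Lgals3 by 0.90, Fcer1g by 0.89 and Tyrobp by 0.88 (limma adjusted p from 0.00326 to 0.0465). The summed signal of the 18 markers ran from 187030 to 458816 in obese rats and from 147490 to 220158 in lean rats. Brighter markers weigh more in that sum. The mean log2 deviation over the markers was highest in obese rat 6, at 0.99, which also had the highest core and immunoproteasome means. It was next highest in obese rat 2, at 0.42. That rat had the lowest cap and immunoproteasome means of the obese rats, at -0.073 and 0.045. The highest cap mean was that of obese rat 7, whose macrophage mean was 0.34. All 18 markers lay above the filter. In whole tissue, more cells of a type and more RNA per cell cannot be told apart, and the part of macrophages in the proteasome estimates was not tested. Of the lymphocyte markers 6 of 13 measured lay above the filter, 1 of them, Cd4, above 0 at 0.29, with a median of -0.10 (-0.13 with 13 arrays), and 0 passed in either set (limma; 2 had an unadjusted p under 0.05 in each). Ms4a1, a B cell marker, had -0.34 (limma adjusted p = 0.161). Adipocyte markers had a median of -0.045 over 9, mesothelial markers -0.22 over 6 and endothelial markers 0.12 over 5 (-0.054, -0.25 and 0.12 with 13 arrays), and 0 passed in any of these lists (limma; 1, 0 and 0 had an unadjusted p under 0.05 in each set). Of these, Lep had 0.68 and Slc2a4 -0.16, Krt19 -0.26 and Wt1 -0.17, and Pecam1 0.17 and Tie1 0.13.

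A measure of RNA quality is given beside these estimates. The log2 ratio of the 3 prime to the 5 prime Gapdh control signal, a measure that rises with RNA breakdown, was 0.77 ± 0.28 (SD) in the 7 obese rats and 1.05 ± 0.26 (SD) in the 8 lean rats, with ranges of 0.35 to 1.07 and of 0.56 to 1.38 that overlapped. With this ratio as a covariate, the median of the 41 genes was 0.12 with 15 arrays and 0.14 with 13, 32 were above 0 beside 50% and 50.3% of all genes, and 7 and 8 had an unadjusted p under 0.05. The share of all genes at that p was not computed with the covariate. The part of this ratio in the estimates was otherwise not tested.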

How the data were processed

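Values were the MAS5 signals that the authors deposited, an intensity per probe set on a linear scale, from 0.4 to 511805.2. MAS5 is named in the submitters' processing notes, and its version and settings are not given in the sources used here. In each array the mean without the lowest and highest 2% of signals was 1500.34 to 1500.42. Of 31099 probe sets, 57 were controls, 20826 named 1 gene, 436 several and 9780 none in GEO's platform annotation.

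A pseudocount of 79.9, the 10th percentile of the deposited signals, was added before log2 was taken, and probe sets above the 40th percentile of mean log2 value (18625) were fitted with limma 3.58.1 in R 4.3.3 (lmFit, eBayes). Adjusted p-values are Benjamini-Hochberg values over all of them, with a threshold of 0.05. The limma test behind them sets the difference between groups against the spread between rats. The number of arrays limits the precision. A fold change is on the log2(signal + 79.9) scale. Fits were made with 15 arrays and with 13, and the script was tested on simulated data. The changes planted there were larger than most member estimates, so that test does not show whether changes of their size would pass. For ratios within arrays the test was an exact two-sided permutation over rats, adjusted over 2 pairs.

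Groups came from the sample titles. The members and lists were chosen with earlier results of these data known. Named with values were the immunoproteasome genes, Psmb5, Psmb7 and Psme4, the up to 4 genes with the smallest p in each direction of core and cap, and in each companion list those past the threshold or else the 2 with the smallest p. Other members are named or covered by the range given for their class, and Nfe2l1, Nfe2l2 and Tap1 are named for their place in the background. Psmb6 and Psme3, whose probe sets name several genes, were not analysed, so the planned ratio of Psmb9 over Psmb6 was not computed. Alternatives covered the pseudocount, the filter, scaling, a replicate block, array weights, eBayes settings, a Gapdh covariate, the mean over probe sets and each rat left out. Python 3.11.15 and matplotlib 3.10.9 drew the plots.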

Additional observations from a re-analysis of the deposited data

Results flagged for a closer look

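In 8 of 86 sets of signals (41 genes and 2 ratios, in each group), the highest or lowest rat stood apart from the rest of its group by Dixon's criterion at 95%, where chance gives about 4.3. Psma7 was 13251 in obese rat 6, and the next obese rat was at 9780. Psma1 was 8644 in obese rat 8, against 6699 in the next. Psmd9 was 2297 in obese rat 3, against 1717 in the next. Psmd1 was low in obese rat 2, at 1958, where the next obese rat was at 2549. Among lean rats, Psma2 was 16348 and Psmc6 4743 in lean rat 8, against 11516 and 3535 in the next. Psmb5 was 11909 in lean rat 4, against 10437. Psme1 was low in lean rat 5, at 10245, where the next lean rat was at 12465.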

How the results depend on the processing

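No alternative or rat left out brought a proteasome gene past the threshold, in either set of arrays. Median centring raised the median of the 41 genes to 0.25 with 15 arrays and 0.28 with 13, and that of the cap to 0.27 and 0.31. It turned Psmb4 to 0.045 and 0.049, Psma3 to 0.065 and 0.058 and Psmd12 to 0.091 and 0.066. Psmd12 was also above 0 with quantile normalization (0.013, 15 arrays) and array weights (0.027 and 0.0035). The mean over probe sets turned Psme1 to -0.083 and -0.091 and Psmb5 to -0.12 and -0.16. The difference in the ratio of Psmb8 over Psmb5 turned to 0.013 and 0.017 with quantile normalization and to 0.23 and 0.29 with the mean over probe sets, and that of Psmb10 over Psmb7 was 0.46 with quantile normalization (15 arrays, exact permutation adjusted p = 0.0379). The cause was not tested. Called macrophage markers with 15 arrays were 3 with the filter at the 60th percentile and 2 with the mean over probe sets, beside 36 of 8030 and 23 of 9698 genes. With 13 they were 1 without a filter, 0 with the replicate block and 1 with the Gapdh covariate, where 29, 3 and 12 of all genes passed. Also with 13, 1 adipocyte marker passed with the pseudocount at the 25th percentile, the 60th percentile filter, median centring or trend and robust eBayes. Of all genes 155, 208, 253 and 190 passed in those fits.

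With each rat left out in turn, called macrophage markers ran from 0 to 7 with 15 arrays and from 2 to 6 with 13, and called adipocyte markers from 0 to 1 with 13. Over the same fits the count of all genes called ran from 0 to 151 with 15 arrays and from 33 to 146 with 13. The ratio difference of Psmb8 over Psmb5 ran from -0.077 to 0.026 and from -0.080 to 0.016, and that of Psmb10 over Psmb7 from 0.31 to 0.46 and from 0.26 to 0.43. Psma3 ran from -0.16 to 0.028 and from -0.20 to 0.015, and Psmd12 from -0.051 to 0.049 and from -0.098 to 0.014.

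Both groups carry rat numbers, 7 of them shared. Deviations of same-numbered rats correlated at -0.11 to 0.24, over 0.1 for 2 of 7, so the numbers were not taken to pair the rats. With the rat number as a replicate block, 34 of 41 genes were above 0 with 15 arrays and 32 with 13, beside 47.4% and 46.6% of all genes. Of the members 9 and 7 had an unadjusted p under 0.05 (share of all genes not computed), and Psma3 turned to 0.011 with 13. Over all probe sets with 13 arrays, 189 passed without the block and 3 with it. The block was a fixed term, so rats without a same-numbered partner did not enter the difference. These were lean rat 4 with 15 arrays, and obese rat 7 and lean rats 1 and 4 with 13. The block fits thus rest on fewer rats, and a part of pairing in the lower counts was not tested.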
